A study of Homo sapiens with 12 samples.

Results

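The annexins are a family of proteins that bind phospholipid membranes in the presence of calcium, and 9 of their genes, ANXA1, ANXA2, ANXA3, ANXA4, ANXA5, ANXA6, ANXA7, ANXA9 and ANXA11, are described here over 12 expression arrays. They were chosen by symbol, out of 19775 genes that the array names. ANXA1 was included because its signal differed widely between MMS1 arrays, and the other 8 genes because they are its paralogues. The platform annotation gave 19 probe sets that name 1 of the 9 genes alone. Each gene is given by its brightest such probe set over the 12 arrays, called its main probe set. The arrays came from 2 cell lines labelled as multiple myeloma, a cancer of plasma cells, in 4 groups of 3 arrays. The groups were MMS1 with a miR-16 sponge, MMS1 with a control sponge, RPMI8226 with a miR-16 sponge and RPMI8226 with a control sponge. All 4 groups carried a lentivirus with GFP and had been sorted by flow cytometry. The labels of the miR-16 sponge groups also use the words KO, knock down and siRNA. They do not tie an array to its own flask, so p-values measure only the spread between these arrays, which may be technical.

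An annexin has a conserved core of repeats that holds the calcium and docks on membranes rich in acidic lipids, and a variable tail at its N-terminus that sets its partners. The family takes part in membrane traffic, in repair of the torn plasma membrane and, outside the cell, in the control of inflammation and of blood clotting. ANXA1 is known as a mediator of glucocorticoid action whose tail peptides act on formyl peptide receptors. A sponge is a transcript with many binding sites for a microRNA, made to draw it away from its targets. MiR-16 recognises targets through its seed, bases 2 to 8, which are in capitals in the mature sequence here, shown because it is what the sponge was made to bind.
hsa-miR-16-5p: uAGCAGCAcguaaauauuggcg
RefSeq places this sequence at chr13:50049027-50049048 on the minus strand (MIR16-1) and at chr3:160404754-160404775 on the plus strand (MIR16-2) of GRCh38.p14. The level of the mature microRNA is not given by these arrays.

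The values are log2 signals, which ran from 4.0 to 14.71, and the array medians lay between 5.8 and 5.9. Most markers of the labelled cell type were low: in every group 3 or 4 of 10 plasma cell genes exceeded the median gene. Just 2 exceeded the upper quartile of all genes, SDC1 (8.90 ± 0.22, SD, n = 12) and XBP1 (8.51 ± 0.16). JCHAIN (4.20 ± 0.24) and TNFRSF17 (4.46 ± 0.26) lay near the lower bound of 4. All 8 measured erythroid markers lay above the median gene in every group, with GATA1 at 9.56 ± 0.20 and HBE1, an embryonic globin gene, between 13.80 and 14.40 on every array. Above the upper quartile lay 7 or 8 of the erythroid markers, depending on the group. All 6 epithelial markers also exceeded the median gene in every group, and 4 or 5 of them the upper quartile. Most of these markers go against the labelled cell type, and the identity of the lines was not tested here. They are called by their labels. In the control probes for 18S ribosomal RNA, replicate 1 of MMS1 with the miR-16 sponge read 7.84, and the 11 others 9.56 to 11.14. The ANXA1 difference in MMS1 and the paralogues called there are also given without it.

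ANXA1 was the member with the widest spread, and the sponge went with opposite shifts in the lines. Because ANXA1 was chosen for this pattern, its values are a description with no test. On its main probe set it had log2 signals of 11.36, 11.17 and 11.10 on the MMS1 miR-16 sponge arrays, against 7.34, 7.20 and 7.55 on the MMS1 control arrays. The groups did not overlap, and the difference of 3.85 amounts to 14.4-fold higher signal with the miR-16 sponge. Without replicate 1 of the miR-16 sponge the difference was 3.77. In RPMI8226 the signals were 9.88, 9.95 and 9.88 with the miR-16 sponge, against 10.72, 10.76 and 10.74 with the control sponge. All 3 miR-16 sponge arrays lay below all 3 control arrays there, by 0.83 on average, or 1.78-fold lower. In bulk RNA such as this, fewer cells with a transcript and less of it per cell cannot be told apart.

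The low group was the MMS1 control. Its mean of 7.36 ± 0.18 (SD, n = 3) lay below the 9.90 ± 0.04 of RPMI8226 with the miR-16 sponge, the 10.74 ± 0.02 of the RPMI8226 control and the 11.21 ± 0.14 of MMS1 with the miR-16 sponge. No neighbours in that order overlapped. Between lines, the difference MMS1 minus RPMI8226 was -3.37 in control arrays and 1.31 in miR-16 sponge arrays, so the line with more ANXA1 signal was not the same under the 2 sponges. A second, much dimmer probe set shifted the same way with the sponge in both lines. It had 5.86, 5.26 and 5.32 with the miR-16 sponge in MMS1, against 4.11, 4.66 and 4.67 in MMS1 controls, and 4.65, 4.79 and 4.41 with the miR-16 sponge in RPMI8226, against 5.74, 5.53 and 6.08 in RPMI8226 controls. On this probe set the highest group was the RPMI8226 control (mean 5.78), which overlapped MMS1 with the miR-16 sponge (5.48), unlike the order above. The MMS1 control, again lowest on average, overlapped RPMI8226 with the miR-16 sponge. The differences were 1.0 in MMS1 and -1.17 in RPMI8226, against 3.85 and -0.83 on the main probe set. Both low groups lay close to the lower bound, where a change can be compressed, which was not tested.

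**Figure D1:**
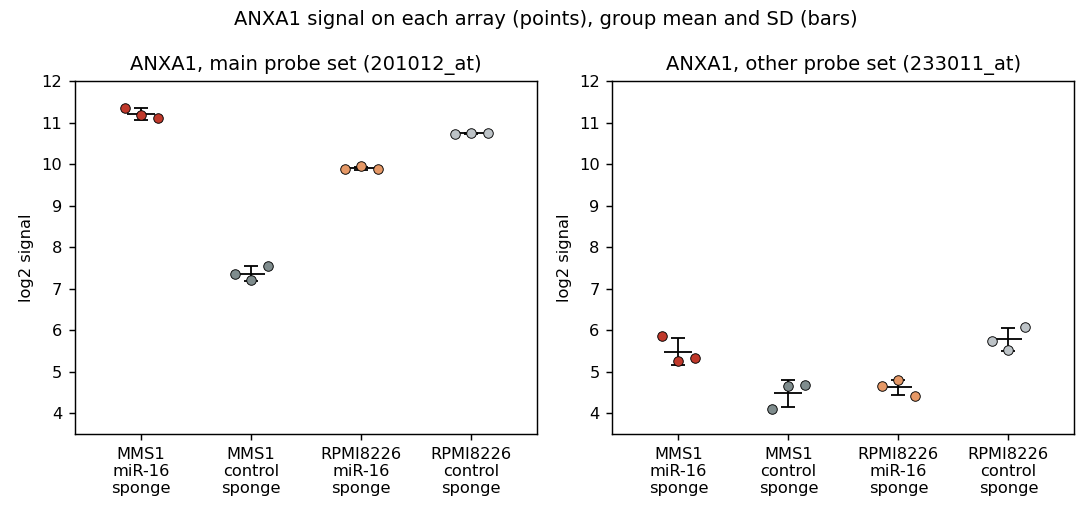
Log2 signal of ANXA1 on each array (points) for its 2 probe sets, by group, with the group mean and SD (bars, n = 3). On the main probe set the MMS1 miR-16 sponge arrays sit between 11.10 and 11.36 and the MMS1 controls between 7.20 and 7.55, while in RPMI8226 the miR-16 sponge arrays sit below their controls.

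The start of ANXA1 is shown because ANXA1 had the widest shift and, among the 13 RefSeq windows of the 9 genes, the lowest share of G and C. The window is the 250 bases before the RefSeq start on GRCh38.p14, at chr9:73151615-73151864 on the plus strand.
ANXA1 upstream window: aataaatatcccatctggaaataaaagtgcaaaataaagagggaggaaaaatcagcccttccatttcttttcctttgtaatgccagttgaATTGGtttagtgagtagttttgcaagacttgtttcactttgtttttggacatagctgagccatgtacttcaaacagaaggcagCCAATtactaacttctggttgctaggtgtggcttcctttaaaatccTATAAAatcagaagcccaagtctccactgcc
Capitals mark matches, on either strand, to any of 5 motifs. These were TATAAA for the TATA motif, CCAAT for the motif of that name, GGGCGG for the GC motif, TGANTCA for an AP-1 site and AGATAA for a GATA site. GATA1 is abundant on these arrays, which is why the last was searched. The ANXA1 window held 1 TATA motif, 31 bases before the start, and 2 CCAAT motifs, 77 and 160 bases before it. The letters of the GC motif, the AP-1 site and the GATA site did not occur in it. Over 35116 windows of the same length, 10.7% held a TATA motif, 32% a CCAAT motif, 42.6% a GC motif, 6.57% an AP-1 site and 9.17% a GATA site. ANXA1 had 38.4% G and C, at or under which lay 10.8% of all windows, whose median was 58.0%. The windows of the paralogues ran from 50% to 78.8%. A match is a run of letters and no evidence that a factor binds.

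Among the 8 paralogues the sponge in MMS1 went with 2 rises and 3 falls, all far smaller than the shift of ANXA1. ANXA5 and ANXA6 rose, and ANXA4, ANXA7 and ANXA11 fell. Calls rest on limma's moderated test at an adjusted p under 0.05 over 54613 probe sets, and 5 of 8 paralogues were called, with or without replicate 1 of the miR-16 sponge, against 12.4% of all genes (4.34% higher and 8.08% lower). The median paralogue difference was 0.14 and that of all genes -0.04. ANXA2, ANXA3 and ANXA9 did not pass.

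ANXA6, the member with a doubled core, known for links between membranes, calcium and the actin cytoskeleton, had 7.61, 7.37 and 7.50 with the miR-16 sponge in MMS1, against 6.81, 6.61 and 6.83 in controls. The groups did not overlap, and the difference was 0.75 with a standard error of 0.11 (limma, adjusted p = 0.000503). Its other probe set gave 0.32 (adjusted p = 0.325). ANXA5, whose protein binds the phosphatidylserine exposed by dying cells and serves as a stain for them, had 9.50, 9.18 and 9.20 with the miR-16 sponge, against 8.75, 8.55 and 8.65 in controls. Every miR-16 sponge array lay above every control, by 0.64 on average with a standard error of 0.11 (adjusted p = 0.00218).

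ANXA11, which has a long, low-complexity tail and tethers RNA granules to lysosomes, had 8.90, 8.93 and 8.88 with the miR-16 sponge in MMS1, against 9.64, 9.56 and 9.56 in controls. All 3 miR-16 sponge arrays lay below all 3 controls. ANXA11 fell by 0.68 with a standard error of 0.09 (adjusted p = 0.00032), and of its 2 other probe sets, 1 fell by 0.86 (adjusted p = 0.00195) and 1 gave -0.44 (adjusted p = 0.0675). ANXA7, also called synexin and known for bringing secretory granules together, had 9.42, 9.22 and 9.29 with the miR-16 sponge, against 9.79, 9.55 and 9.69 in controls. It fell by 0.37 (adjusted p = 0.0454) without overlap, and by 0.56 on its other probe set (adjusted p = 0.00292). ANXA4, which is known from epithelial and secretory cells, had 6.86, 6.35 and 6.36 with the miR-16 sponge, against 7.05, 6.85 and 7.29 in controls. Here the groups touched, since replicate 1 of the miR-16 sponge lay just above control replicate 2. ANXA4 fell by 0.54 (adjusted p = 0.0385), and by 1.0 on its other probe set, whose groups did not overlap (adjusted p = 0.00012). That probe set was dim, with means of 5.53 with the miR-16 sponge and 6.53 in controls. So was the ANXA11 probe set that fell by 0.86, with means of 4.55 and 5.40. Signal below the median gene (6.44) may be background, so these 2 falls are of uncertain size.

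Without replicate 1 of the miR-16 sponge, the falls on the main probe sets were 0.71 for ANXA4, 0.42 for ANXA7 and 0.68 for ANXA11 (adjusted p = 0.00605, 0.0336 and 0.000952). The rises were 0.68 for ANXA6 and 0.53 for ANXA5 (adjusted p = 0.00202 and 0.00545). The calls of ANXA4 and ANXA7 on the main probe sets were not firm. For ANXA4, each of 7 arrays ended the call when left out: replicates 1 and 3 of the MMS1 control, 2 and 3 of MMS1 with the miR-16 sponge, 2 and 3 of the RPMI8226 control, and 1 of RPMI8226 with the miR-16 sponge. The adjusted p was then 0.0515 to 0.161. For ANXA7 the same 7 ended it, and so did replicate 1 of the RPMI8226 control and replicate 2 of RPMI8226 with the miR-16 sponge, 9 in all (adjusted p = 0.0503 to 0.171). Without any of the 7, the count of called paralogues was 3. ANXA5, ANXA6 and ANXA11 kept their calls whichever array was left out.

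**Figure D2:**
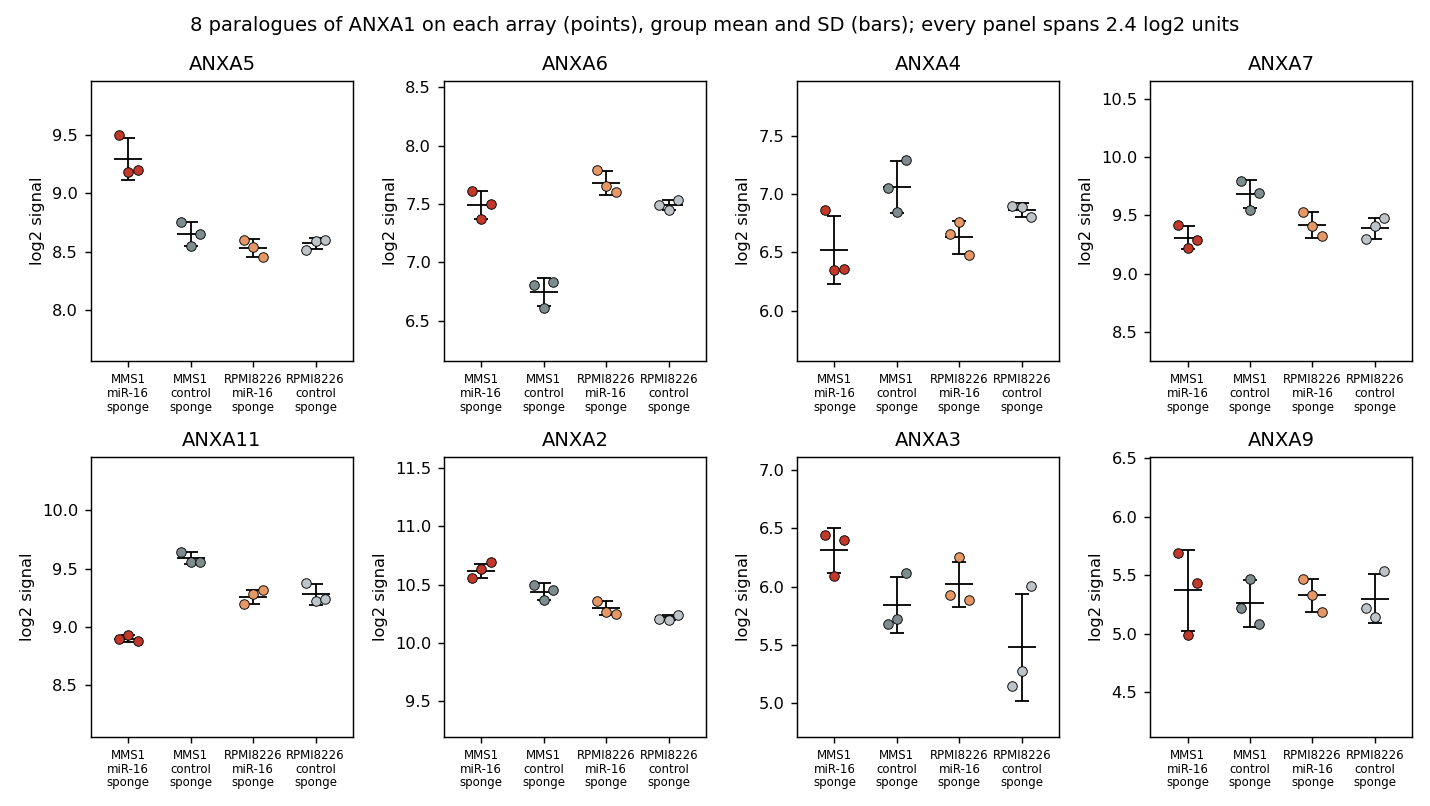
Log2 signal of the 8 paralogues on each array (points, main probe sets) by group, with the group mean and SD (bars, n = 3). Levels cannot be compared between genes, and every panel spans the same width. ANXA5 and ANXA6 are higher and ANXA11 is lower on all 3 MMS1 miR-16 sponge arrays than on the MMS1 controls.

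For ANXA2, ANXA3 and ANXA9 the intervals describe the difference in signal in MMS1. The main probe sets of ANXA3 and ANXA9 averaged below the median gene (6.44) in every group, so their signal may be background. Their intervals therefore do not bound a change of the transcript. ANXA2, which with S100A10 forms a surface complex that promotes plasmin formation, had 10.56, 10.63 and 10.69 with the miR-16 sponge, against 10.50, 10.37 and 10.45 in controls. The difference was 0.18 (95% interval -0.01 to 0.38, adjusted p = 0.262). Of its other probe sets, 2 of the class that may cross-hybridise gave 0.13 and 0.16 and did not pass, whereas a dim one rose by 0.60 (adjusted p = 0.00712). Probe sets of that class, the main one among them, do not exclude signal from the ANXA2 pseudogenes, and the probe set of ANXA2P2 gave 0.13. ANXA3, an annexin known from neutrophil granules, ranged from 6.09 to 6.44 with the miR-16 sponge, against 5.68 to 6.12 in controls (difference 0.47, interval 0.02 to 0.92, adjusted p = 0.194). ANXA9, an atypical member whose core has lost calcium-binding residues, ranged from 4.99 to 5.69 with the miR-16 sponge, against 5.08 to 5.47 in controls (difference 0.11, interval -0.26 to 0.49, adjusted p = 0.772).

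The upstream windows of ANXA5 and ANXA6, which rose in MMS1, and of ANXA7, which fell, are shown for comparison with that of ANXA1, with the same motifs in capitals and all on the minus strand of GRCh38.p14. They lie at chr4:121696981-121697230, at chr5:151157780-151158029, the first of 2 RefSeq windows of ANXA6, and at chr10:73414059-73414308.
ANXA5 upstream window: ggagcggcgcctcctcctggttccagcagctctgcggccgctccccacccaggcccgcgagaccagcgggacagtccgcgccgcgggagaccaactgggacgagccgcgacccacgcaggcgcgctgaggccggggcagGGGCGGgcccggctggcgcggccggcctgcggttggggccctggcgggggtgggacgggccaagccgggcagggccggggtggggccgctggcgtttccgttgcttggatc
ANXA6 upstream window: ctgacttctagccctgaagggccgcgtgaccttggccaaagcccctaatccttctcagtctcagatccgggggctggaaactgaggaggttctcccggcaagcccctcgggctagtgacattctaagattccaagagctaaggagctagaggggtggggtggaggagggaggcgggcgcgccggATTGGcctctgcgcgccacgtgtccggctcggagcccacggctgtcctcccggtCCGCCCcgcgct
ANXA7 upstream window: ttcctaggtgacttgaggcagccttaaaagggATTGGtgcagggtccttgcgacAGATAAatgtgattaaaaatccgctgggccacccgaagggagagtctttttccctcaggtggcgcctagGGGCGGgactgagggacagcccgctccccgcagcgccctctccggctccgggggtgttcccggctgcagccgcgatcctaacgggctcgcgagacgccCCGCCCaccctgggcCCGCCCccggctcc
The ANXA5 window held 1 GC motif, 111 bases before the start. The printed ANXA6 window held a GC motif 12 bases and a reverse CCAAT motif 66 bases before the start. The ANXA7 window held 3 GC motifs, a reverse CCAAT motif and, 196 bases before the start, a GATA site. The windows of ANXA4 and ANXA11, which also fell in MMS1, held no GATA site, and 9.17% of all windows held one. The TATAAA letters occurred in none of these 3 windows. Elsewhere in the family they occurred in ANXA2, 31 bases before the start, and in 1 of the 3 windows of ANXA11, 61 bases before it.

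In RPMI8226 none of the 8 paralogues passed, where 0.217% of all genes did. At an unadjusted p under 0.05, 7459 of 54613 probe sets passed in that line. The differences ran from -0.23 for ANXA4 to 0.54 for ANXA3, with a median of 0.03, against -0.02 for all genes. The other probe set of ANXA4 went the other way, at 0.27 (95% interval 0.01 to 0.52, limma, adjusted p = 0.344). ANXA5 had 8.60, 8.54 and 8.45 with the miR-16 sponge, against 8.51, 8.59 and 8.60 in controls, and these values overlapped (difference -0.04, 95% interval -0.28 to 0.20, adjusted p = 0.921). ANXA11 had 9.20, 9.28 and 9.32 with the miR-16 sponge, against 9.38, 9.22 and 9.24 in controls, again with overlap (difference -0.02, interval -0.21 to 0.18, adjusted p = 0.963). ANXA6 had 7.79, 7.65 and 7.60, against 7.49, 7.45 and 7.53 in controls. Its miR-16 sponge arrays were all the higher ones, but the difference of 0.19 did not pass (interval -0.04 to 0.42, adjusted p = 0.463). ANXA3 gave the largest estimate, with 5.93, 6.25 and 5.89, against 5.15, 5.28 and 6.01 in controls. Control replicate 3 lay inside the range of the miR-16 sponge arrays (adjusted p = 0.269).

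**Figure D3:**
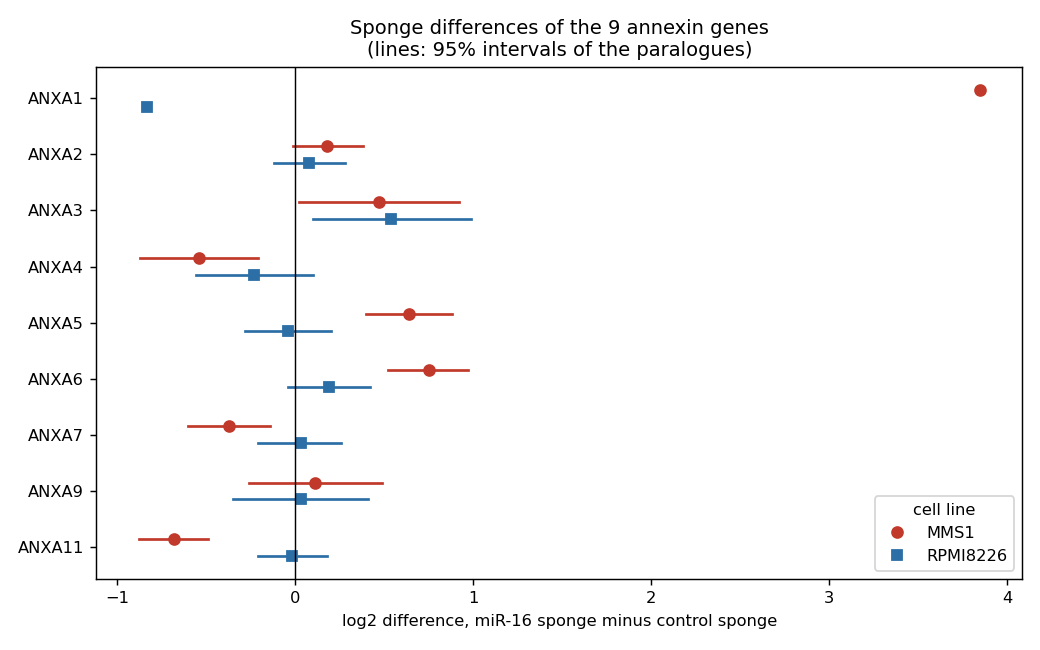
Log2 difference, miR-16 sponge minus control sponge, of the 9 annexin genes in MMS1 (circles) and RPMI8226 (squares), with 95% intervals of the paralogues (lines, 3 arrays against 3). ANXA1 stands at 3.85 in MMS1 and -0.83 in RPMI8226, and the 8 paralogues lie between -0.68 and 0.75.

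The sponge difference itself was compared between the lines. Of the 8 paralogues 2 differed, against 5.9% of all genes (3.27% higher and 2.63% lower). For ANXA5 the difference in MMS1 exceeded that in RPMI8226 by 0.67 (limma interaction, 95% interval 0.34 to 1.01, adjusted p = 0.0245). Leaving out any of 6 arrays ended this call (adjusted p = 0.0547 to 0.0684) and left 1 paralogue: replicates 2 and 3 of the MMS1 control, of the RPMI8226 control and of RPMI8226 with the miR-16 sponge. For ANXA11 the difference in MMS1 was lower by 0.67 (interval -0.95 to -0.39, adjusted p = 0.00943), and the call held whichever array was left out. ANXA6 gave 0.56 and did not pass (interval 0.23 to 0.88, adjusted p = 0.0504). At adjusted p = 0.0454 it passed when replicate 2 of MMS1 with the miR-16 sponge was left out. It also passed with quantile normalization, among brighter probe sets and with the trended prior. The other, dimmer probe set of ANXA4 gave -1.27 (adjusted p = 0.000665), and that of ANXA7 -0.70 (adjusted p = 0.014). Of the 2 other probe sets of ANXA11, the dimmest gave -0.78 (adjusted p = 0.0467). The other gave -0.45 and did not pass (adjusted p = 0.244). For ANXA1 the same quantity was 4.68, a description only.

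Between the lines under the control sponge, 1 of 8 paralogues passed, against 10.3% of all genes (3.8% higher and 6.52% lower). ANXA6 was lower in MMS1, with 6.81, 6.61 and 6.83, against 7.49, 7.45 and 7.53 in RPMI8226, a difference of -0.74 without overlap (adjusted p = 0.000617). Its lowest group on this probe set, like that of ANXA1, was the MMS1 control. The other, dim probe set of ANXA6 did not show this, with means of 5.27 in MMS1 and 5.26 in RPMI8226 (difference 0.01, adjusted p = 0.99). For ANXA4 and ANXA7 a probe set other than the main one passed. On these ANXA4, on its dim probe set, was higher in MMS1 by 0.59 (adjusted p = 0.00693) and ANXA7 by 0.37 (adjusted p = 0.0419). ANXA11 gave 0.31 and did not pass (adjusted p = 0.0595), but reached 0.0435 when replicate 1 of MMS1 with the miR-16 sponge was left out, which makes 2 paralogues. Under the miR-16 sponge, 3 of 8 passed, against 20.6% of all genes (8.38% higher and 12.2% lower). ANXA5 was higher in MMS1 by 0.76 (adjusted p = 0.000418) and ANXA2 by 0.33 (adjusted p = 0.0231), while ANXA11 was lower by 0.36 (adjusted p = 0.0152). Leaving out replicate 2 or 3 with the miR-16 sponge, in either line, ended the call of ANXA2 (adjusted p = 0.058 to 0.0734). In RPMI8226 these arrays also ended that of ANXA11 (adjusted p = 0.0502 and 0.0525), so that 1 paralogue was called. On probe sets other than the main ones, ANXA4 was lower in MMS1 by 0.67, ANXA11 by 0.65 and ANXA7 by 0.33 (adjusted p = 0.00162, 0.00788 and 0.0417). Those of ANXA4 and ANXA11 are the dim ones described above. ANXA2 was higher there by 0.32 to 0.52 on 3 probe sets (adjusted p = 0.0105 to 0.0356). These comparisons share arrays with the sponge comparisons and are not independent of them.

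The family's spread can be put on 1 scale by the range of the 4 group means of each gene. That range was 3.85 for ANXA1, wider than in 99.9% of genes, as its choice would have it. ANXA6 followed with 0.93, ANXA3 with 0.83, ANXA5 with 0.76 and ANXA11 with 0.68, and then ANXA4 with 0.54, ANXA2 with 0.41, ANXA7 with 0.37 and ANXA9 with 0.11. The median gene had 0.33. Without replicate 1 of MMS1 with the miR-16 sponge, ANXA1 spanned 3.77 and the paralogues 0.12 to 0.93.

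No annexin was among the 5 genes whose main probe sets were nearest to the profile of ANXA1 over the 12 arrays. Nearness was the root mean square of the differences after each gene was centred on its own mean. This measure keeps the size of a change, so the paralogues, with their far smaller ranges, could not be among the nearest. NLRP7, a gene of the inflammasome family, was nearest at 0.44, followed by the keratin gene KRT8 at 0.49, the ubiquitin protease gene USP22 and the tetraspanin gene TSPAN13 at 0.50 each, and the retinaldehyde dehydrogenase gene ALDH1A1 at 0.52. Pearson's r with ANXA1 was 0.94 to 0.99 for these 5, over 12 arrays that fall into 4 groups, and is a description. NLRP7 averaged 9.38 ± 0.18 (SD, n = 3) in MMS1 with the miR-16 sponge and 4.89 ± 0.10 in its control. In RPMI8226 it averaged 8.54 ± 0.06 with the miR-16 sponge and 8.42 ± 0.05 in the control. USP22 averaged 9.24 ± 0.21 and 6.09 ± 0.30 in MMS1 with the miR-16 and the control sponge, and 9.21 ± 0.10 and 9.40 ± 0.14 in RPMI8226 in the same order. In each of the 5 genes the MMS1 control was the lowest group, which follows from their choice by nearness to ANXA1. Without replicate 1 of MMS1 with the miR-16 sponge, the same 5 genes were nearest, at 0.46 to 0.54. A gene with no change at all would lie at 1.49, the root mean square of ANXA1 about its own mean. Among the paralogues ANXA6 lay at 1.19 (r = 0.85), under that value, and ANXA11 at 1.71 (r = -0.87), above it.

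**Figure D4:**
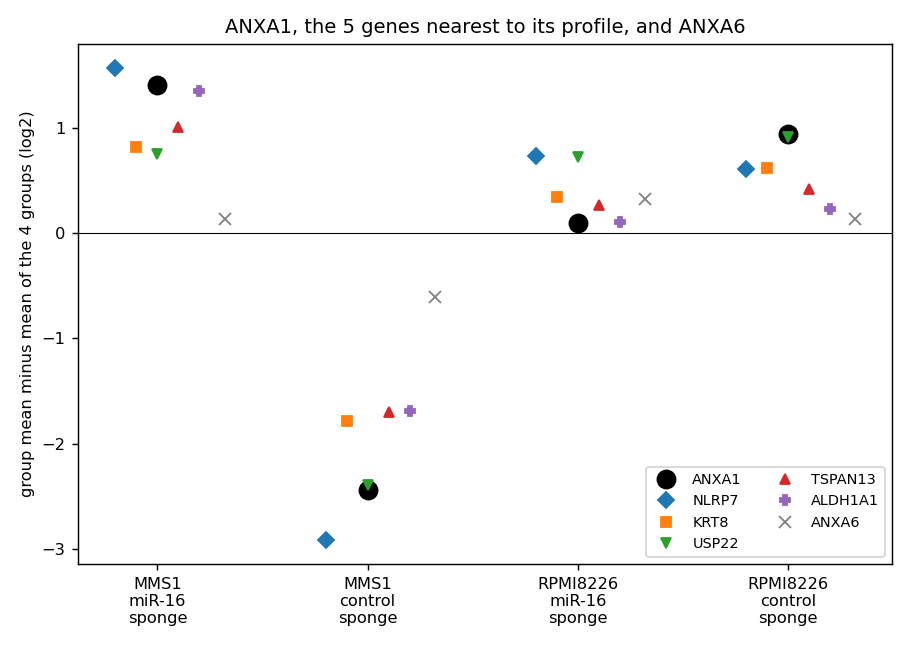
Group means on the main probe sets of ANXA1, the 5 genes nearest to its profile and ANXA6, each minus its own mean over the 4 groups (log2). All 7 genes are lowest in the MMS1 control group, and ANXA6 spans 0.93 where ANXA1 spans 3.85. For the 5 nearest genes the low MMS1 control follows from their choice.

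Binding partners and effectors of annexins were followed on a list of 18 genes, 17 of them measured. In MMS1 2 rose and 3 fell, with a median of 0.12, where 4.34% of all genes were called higher and 8.08% lower. In RPMI8226 none passed, where 0.217% of all genes did. There PLAT and PDCD6 gave 0.43 and -0.31, and passed among brighter probe sets (adjusted p = 0.0498 and 0.0444) and with the trended prior (adjusted p = 0.0359 and 0.0217). PLAT, the tissue plasminogen activator that is drawn to ANXA2 at the cell surface, had the largest rise, 1.32 (8.43 with the miR-16 sponge and 7.11 in controls, limma, adjusted p = 1.91e-05). PRKCA, a protein kinase C that ANXA6 binds, fell by 0.97 (adjusted p = 5.06e-05). PLA2G4A, the cytosolic phospholipase A2 that ANXA1 is known to inhibit, fell by 0.68 (adjusted p = 0.00105). PDCD6, which encodes the calcium-binding protein ALG-2, a partner of ANXA7 and ANXA11, fell by 0.42 (adjusted p = 0.0101). Averaged over its probe sets, PDCD6 gave -0.20 and did not pass (adjusted p = 0.139), nor did it with 2 groups only (adjusted p = 0.0535). The fifth was SRI, named after its value had been seen. SRI encodes sorcin, a calcium-binding partner of ANXA7, and rose by 0.33 (adjusted p = 0.0424), and the call ended when any of 11 arrays was left out, all but replicate 3 of MMS1 with the miR-16 sponge (adjusted p = 0.0514 to 0.15). PLAT and PRKCA also differed between the lines in their sponge difference (0.89 and -0.71, adjusted p = 0.0117 and 0.0141). PLA2G4A gave -0.34 and PDCD6 -0.10, which did not pass (adjusted p = 0.252 and 0.736).

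The S100 partners, EGFR and the formyl peptide receptors were named after their values had been seen. S100A10, the partner of ANXA2, differed by 0.22 in MMS1 and by 0.21 in RPMI8226 (adjusted p = 0.158 and 0.329). S100A11, the partner of ANXA1, differed by 0.27 and -0.12 (adjusted p = 0.21 and 0.725). The formyl peptide receptor genes FPR1, FPR2 and FPR3 differed by 0.07, 0.12 and 0.61 in MMS1 (adjusted p = 0.833, 0.609 and 0.0671). FPR3 passed when replicate 1 or 3 of RPMI8226 with the miR-16 sponge was left out (adjusted p = 0.0487 and 0.0368). EGFR, a receptor whose traffic and signalling annexins affect, had 6.57, 6.81 and 6.90 with the miR-16 sponge in MMS1, against 7.54, 7.43 and 7.87 in controls. The groups did not overlap, but the difference of -0.86 did not pass (adjusted p = 0.269). In RPMI8226 EGFR had 7.39, 5.13 and 7.28, against 7.62, 7.74 and 7.39 in controls, so that replicate 2 with the miR-16 sponge lay far below the rest. Without that array EGFR passed in MMS1 (adjusted p = 0.00236), and it did with 2 groups only (adjusted p = 0.00914).

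Of 10 genes of phospholipase A2 and eicosanoid synthesis, all measured, 3 fell and 0 rose in MMS1, with a median of -0.18. Among all genes 8.08% were lower and 4.34% higher. None of the 10 passed in RPMI8226, where 0.217% of all genes did. PLA2G2A, a secreted phospholipase A2, averaged 6.40 with the miR-16 sponge and 9.15 in controls and fell by 2.76 (adjusted p = 1.16e-07). PTGS1, the constitutive cyclooxygenase, fell by 0.57 (adjusted p = 0.0068), and the third was PLA2G4A, named above. LTA4H, which makes leukotriene B, gave 0.29 and did not pass (adjusted p = 0.0773), but was called higher among brighter probe sets, with the mean over probe sets and with the trended prior (adjusted p = 0.0138 to 0.0262). Of 9 measured genes of the glucocorticoid response, 2 rose and 0 fell in MMS1, against 4.34% and 8.08% of all genes. None of the 9 passed in RPMI8226, against 0.217% of all genes. DUSP1, a phosphatase of MAP kinases, rose by 0.84 (adjusted p = 0.000118), and TSC22D3, which encodes GILZ, by 0.44 (adjusted p = 0.016). The call of TSC22D3 ended when replicate 2 or 3 of the MMS1 control, or replicate 2 of MMS1 with the miR-16 sponge, was left out (adjusted p = 0.0571 to 0.071). Averaged over its probe sets it gave 0.15 (adjusted p = 0.217), and with 2 groups only the adjusted p was 0.054. NR3C1, the receptor gene, named after its value had been seen, gave 0.13 (adjusted p = 0.601). Of 13 measured genes of membrane repair, where annexins act with calpains and the ESCRT machinery, 1 fell and 0 rose in MMS1. The shares of all genes were 8.08% and 4.34%. None of the 13 passed in RPMI8226, against 0.217% of all genes. The 1 gene that fell in MMS1 was the calpain gene CAPN1, by 0.44 (adjusted p = 0.00805), although the mean over its probe sets gave 0.01 (adjusted p = 0.963). The 0 that rose became 1 to 3 under 5 of 18 alternatives. CHMP2A, a subunit of ESCRT-III, gave 0.29 (adjusted p = 0.0633) and passed under 4 of them. The calpain gene CAPN2 gave 0.33 (adjusted p = 0.0562) and passed under 3 and without replicate 3 of MMS1 with the miR-16 sponge, and CAPNS1, the calpain small subunit gene, gave 0.28 (adjusted p = 0.14) and passed under 1.

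Markers of epithelial cells, which often express ANXA1, were counted in both lines. Of 6 such genes 5 rose in MMS1, all but CDH1, against 4.34% of all genes. Their mean log2 signal per array was 9.43 to 9.58 with the miR-16 sponge, against 8.52 to 8.64 in controls. Without replicate 1 of the miR-16 sponge it was 9.43 to 9.46. KRT8, 1 of the 5 genes nearest to ANXA1, rose most, from 9.30 in controls to 11.90. The list mean without KRT8 was not taken. In RPMI8226 0 of 6 passed, where 0.217% of all genes did. The array means there were 9.07 to 9.13, against 9.14 to 9.23. Only ELF3 averaged higher with the miR-16 sponge there, at 7.88 against 7.52. Of 8 T cell genes CD3D and CD7 rose in MMS1, against 4.34% of all genes, with array means of 6.61 to 6.79 against 5.66 to 5.85. Most of that shift was CD3D, which averaged 12.41 with the miR-16 sponge and 6.77 in controls, and the other 7 genes had array means of 5.79 to 5.96 against 5.51 to 5.72. CD3E, CD3G and CD2 did not pass and lay between 4.14 and 6.44 on all 12 arrays. Of 7 myeloid genes ITGAM rose in MMS1 (array means 5.56 to 5.71 against 5.58 to 5.63), and 0 of 6 fibroblast (6.10 to 6.40 against 6.22 to 6.35) and 0 of 6 megakaryocyte genes (5.72 to 5.92 against 5.71 to 5.91) passed in either line. Of 8 erythroid genes 2 rose and 4 fell in MMS1, with array means of 10.21 to 10.29 against 10.66 to 10.73. In RPMI8226 HBB rose and HBE1 fell (11.15 to 11.22 against 10.82 to 10.89). For these lists too, 4.34% of all genes rose and 8.08% fell in MMS1, and 0.217% passed in RPMI8226. Without HBB, which rose by 3.16 in RPMI8226, the other 7 had array means of 10.79 to 10.87 there, against 10.87 to 10.93. The part of these cell types in the annexin values was not tested.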

How the data were processed

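The deposited table holds a log2 signal for each probe set on each array, from 15 µg of total RNA amplified in 2 rounds and labelled with biotin, per the labels' protocols. The authors' summary of probes and scaling of arrays: not given in the sources used here. After 62 control probe sets were left out, 54613 were fitted in limma 3.58.1 (R 4.3.3), with 1 mean per group over all 12 arrays, 8 residual and 4.92 prior degrees of freedom, no filter and no further normalization. P-values are two-sided with Benjamini-Hochberg adjustment over all 54613, and a call is an adjusted p under 0.05. Probe sets were named from the platform annotation (41097 name 1 gene, 1801 several and 11777 none), with symbols updated by identifier from RefSeq genes of GRCh38.p14; 42 identifiers without a match kept the older symbol. The probe set of the highest mean stands for its gene. One probe set that names ANXA2 with another gene was left out. Precision is limited by the few arrays, with a median standard error of 0.14 for a difference of 2 groups. Promoter and microRNA sequences are RefSeq's on GRCh38.p14, and all 9 genes matched. From each gene list, up to 4 called genes with the smallest p in MMS1 were named; SRI, EGFR, LTA4H, CHMP2A, CAPN2, CAPNS1, NR3C1, S100A10, S100A11 and the formyl peptide receptors lie outside this rule and were named after their values were seen. Members and lists were chosen with earlier results of these data known. Pairing by replicate number was checked: residuals of same-numbered arrays in different groups correlated at -0.07 to 0.06 over 18 pairs, so no block was used. The fit was tested on simulated data. Alternatives were quantile normalization, brighter probe sets, the mean over the probe sets of a gene, another variance prior, a replicate block, 2 groups only and each array left out. Profiles, ranges and marker means without 1 array, and marker means without 1 gene, were added after the data were seen. Figures were made with Python 3.11.15 and matplotlib 3.10.9.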

Additional observations from a re-analysis of the deposited data

Results flagged for a closer look

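For 2 of 8 paralogues the sponge difference on the main probe set was called unlike in the lines, against 5.9% of all genes. ANXA1 is given beside them without a test. Other probe sets of ANXA4 (a dim one) and ANXA7 also differed, by -1.27 and -0.70 (limma interaction, adjusted p = 0.000665 and 0.014). For ANXA11 a dim probe set gave -0.78 (adjusted p = 0.0467) and another -0.45, which did not pass (adjusted p = 0.244). ANXA5 differed by 0.67 on the log2 scale (MMS1 minus RPMI8226, limma interaction, adjusted p = 0.0245), higher with the miR-16 sponge on 3 of 3 arrays in MMS1 and overlapping in RPMI8226. The call of ANXA5 ended when any of 6 arrays was left out. ANXA11 differed by -0.67 (adjusted p = 0.00943), lower on 3 of 3 arrays in MMS1 and overlapping in RPMI8226. ANXA1 differed by 4.68: each miR-16 sponge array lay above every control in MMS1 and below every control in RPMI8226, and this difference was not tested, because ANXA1 was chosen for it.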

How the results depend on the processing

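The direction of the ANXA1 differences held under every alternative run. With 1 array left out they ran from 3.77 to 3.94 in MMS1, from -0.86 to -0.82 in RPMI8226, from 4.6 to 4.78 for MMS1 minus RPMI8226, from -3.47 to -3.29 between control arrays and from 1.23 to 1.36 between miR-16 sponge arrays. The mean over both ANXA1 probe sets gave 2.42, -1.0, 3.42, -2.34 and 1.09, since it takes in the dim one. The 5 paralogues called in MMS1 became 3 with a replicate block and 3 with 2 groups only (3 to 5 without 1 array), ANXA4 and ANXA7 losing their calls. The block changed no other annexin call. The 0 in RPMI8226 stayed 0 throughout. The 2 that differed between lines were 4 with quantile normalization, with the mean over probe sets and with the trended prior (1 to 3 without 1 array). Between control arrays the 1 became 3 with quantile normalization, 2 among brighter probe sets, 3 with the mean over probe sets and 4 with the trended prior (1 to 2 without 1 array). Between miR-16 sponge arrays the 3 became 1 with 2 groups only (1 to 3 without 1 array). CAPN1 in MMS1 gave 0.01 as a mean of its probe sets. The cause of these shifts was not tested.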

Other observations

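Of 8 further annexin genes, pseudogenes and the receptor ANXA2R, 6 had a probe set of their own, and ANXA8 and ANXA8L1 share probe sets. By limma's test 0 of the 6 passed in the sponge comparison of either line, where 12.4% of all genes passed in MMS1 and 0.217% in RPMI8226, and 12261 and 7459 probe sets had an unadjusted p under 0.05. Between miR-16 sponge arrays ANXA10 was lower in MMS1, at 4.87 against 5.53 in RPMI8226 (difference -0.66, adjusted p = 0.0149), and ANXA2P2 was higher, at 9.27 against 8.95 (difference 0.32, adjusted p = 0.0335), where 20.6% of all genes passed.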
